A study of Mus musculus with 21 samples.

Results

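The UDP-glucuronosyltransferases (Ugt), glutathione S-transferases (Gst) and sulfotransferases (Sult), the phase 2 conjugation enzymes, were followed in mouse liver after antagonism of microRNA-122. Members were the genes whose symbol in the array annotation began with Ugt1 to Ugt3, Gsta, Gstk, Gstm, Gsto, Gstp, Gstt or Sult and a number, each represented by 1 probe set, that with the largest average signal across the arrays. The rule took 42 of the 18193 genes measured: 10 Ugt, 19 Gst and 13 Sult genes. The rule itself uses names and levels and not the comparison of treated with saline mice, though it was written with earlier results of these data known.

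Female NMRI mice, an outbred stock, were dosed on day 2 with 25 mg per kg of SPC3372 or with saline. SPC3372 is an LNA-antimiR, a short oligonucleotide with locked nucleic acid bases that binds and blocks microRNA-122, the most abundant microRNA of hepatocytes. Liver RNA of 3 SPC3372 mice and 3 saline mice was collected at each of days 3, 9 and 23, which gives 6 groups and 18 samples, and was hybridised to Affymetrix arrays. The labels number the mice, and saline mice 1, 2 and 3 and treated mouse 8 occur at both day 3 and day 9, so the 18 samples carry 14 mouse numbers. Whether a recurring number is the same animal is not stated, and livers were dissected at each day. With the mouse number as a random block, the count of called members was the same in every comparison. All groups are of 1 sex and 1 dose, and the age of the mice is not given in the sources used here. Days 3 and 9 lie in 1 set of arrays, named p0617 (15 arrays), and the day 23 comparison lies in another, p0621 (6 arrays), while RNA of the 3 treated day 23 mice was run in both. All values are log2 expression values, and the number of arrays limits their precision. "Called" means a Benjamini-Hochberg adjusted p under 0.05 over all 18193 genes in a limma fit of the 6 groups, and only called genes are said to have fallen or risen.

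Phase 2 enzymes attach a polar group to drugs, hormones, bilirubin, bile acids and products of oxidation, which can then leave the cell through transporters. Ugt enzymes sit in the endoplasmic reticulum and transfer a sugar, in most cases glucuronic acid. Gst enzymes add glutathione to electrophiles, and Sult enzymes transfer a sulfonate group from the donor PAPS. All 3 families consist of close paralogues that lie in gene clusters, so that a short array probe can bind the transcript of more than 1 member.

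Most of these enzymes had high levels in the liver arrays. Of the 42 members, 34 had a mean level above the median of all probe sets (4.79), and 24 lay above the 90th percentile of gene levels (9.57). The choice of the brightest probe set of each gene favours high levels, and 11689 of all 18193 genes lay above the same median. The 8 at or below the median were Gsto2, Gstt4, Sult1c1, Sult1e1, Sult2b1, Sult4a1, Sult6b1 and Ugt2b38, and RMA shrinks the differences of such dim genes. The 10 measured hepatocyte markers (albumin, transthyretin and the like) had a mean level of 13.90 to 14.06 in every mouse, and limma called 0 of them on any day, with 1, 2 and 0 at an unadjusted p under 0.05. In RNA from whole liver, fewer cells of a type and less RNA per cell cannot be told apart.

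Treatment was followed by lower transcript levels of a few conjugation enzymes, and no member was called higher on any day. Ugt3a1 and Ugt2b1 fell at day 3, Ugt2b1, Gsto1 and Ugt2b37 fell at day 9, and Gsto1 fell at day 23. Averaged over the 3 days, 10 members fell: Gsto1, Ugt2b1, Gsta4, Sult5a1, Ugt2b38, Gstm5, Gstt2, Ugt2b37, Ugt3a1 and Gstm7. Of the 2 members with the highest levels in each family none was called. Ugt2b5, Ugt2b36, Gsta3, Gstp1 and Sult2a2 had daily differences of at most 0.23 in size, while Sult3a1 differed by 0.78, 0.02 and 0.36.

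The 150 bases before the transcription start are given here for the 4 members called on a single day and for Ugt2b38 and Ugt2b5, genes of the same cluster that share most of the Ugt2b37 promoter, of which Ugt2b38 was lower after treatment as well and Ugt2b5 stayed near 0. The sequences are from RefSeq on GRCm38.p6, 5′ to 3′ on the strand of the gene, and the last base printed is the one before the start. Capitals mark GTTAA, a core of the sites bound by HNF1, read on either strand (as GTTAA or TTAAC, which overlap in GTTAAC), and AGGTCA, a core of nuclear receptor sites.
Ugt2b37 (chr5:87254789-87254938, minus strand): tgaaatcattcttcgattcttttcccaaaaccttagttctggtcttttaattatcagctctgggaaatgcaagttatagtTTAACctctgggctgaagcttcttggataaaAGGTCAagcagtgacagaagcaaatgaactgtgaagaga
Ugt2b38 (chr5:87424204-87424353, minus strand): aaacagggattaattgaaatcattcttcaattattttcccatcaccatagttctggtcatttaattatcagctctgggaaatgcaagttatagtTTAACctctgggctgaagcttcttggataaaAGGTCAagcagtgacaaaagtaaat
Ugt2b5 (chr5:87140341-87140490, minus strand): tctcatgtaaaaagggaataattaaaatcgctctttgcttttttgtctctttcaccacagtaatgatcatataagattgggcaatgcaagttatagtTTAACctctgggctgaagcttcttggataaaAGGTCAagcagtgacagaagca
Ugt2b1 (chr5:86926504-86926653, minus strand): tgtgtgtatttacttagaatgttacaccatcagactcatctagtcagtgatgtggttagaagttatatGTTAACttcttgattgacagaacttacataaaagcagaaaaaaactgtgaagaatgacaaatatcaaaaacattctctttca
Ugt3a1 (chr15:9279679-9279828, plus strand): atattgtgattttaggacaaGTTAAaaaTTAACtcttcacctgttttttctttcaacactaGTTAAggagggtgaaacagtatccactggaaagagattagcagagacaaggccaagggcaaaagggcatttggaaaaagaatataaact
Gsto1 (chr19:47854823-47854972, plus strand): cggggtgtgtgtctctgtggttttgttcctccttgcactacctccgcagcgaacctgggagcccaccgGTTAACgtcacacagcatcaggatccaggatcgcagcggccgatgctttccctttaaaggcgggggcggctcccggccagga

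The Ugt2b37, Ugt2b38 and Ugt2b5 promoters carried the same stretch around the 2 marked motifs, which stood at the same spacing in all 3. The first base of the HNF1 core lay 70, 56 and 53 bases before the start of Ugt2b37, Ugt2b38 and Ugt2b5. Over the 250 bases before the start, the alignment was 85.2% identical between Ugt2b37 and Ugt2b38, 81.5% between Ugt2b38 and Ugt2b5 and 73% between Ugt2b37 and Ugt2b5. The Ugt2b1 promoter was 49% to 53.7% identical to the other Ugt2b promoters. Its HNF1 core occurred on both strands as GTTAAC, and so did that of Gsto1.

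RefSeq promoters were found for 37 of the 42 members, which had 47 promoters, and none was matched for Gsta4, Gstt2, Sult2a2, Sult4a1 and Ugt3a2. Within 250 bases before the start and on both strands, GTTAA occurred in 22 of the 47 member promoters (46.8%) and in 21.7% of all 32851 promoters. AGGTCA occurred in 19.1% against 14%. The core of the antioxidant response element, TGACNNNGC, occurred in 6.38% against 10.2%, and that of the dioxin response element, GCGTG, in 19.1% against 28.2%. A match is a run of letters and not a measured binding site, and paralogues share their promoters by descent.

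At day 3, 2 of the 42 members were called, both lower, where 4.48% of all genes were called and 1.86% were called lower. At day 9, 3 members were called, all lower (7.14% of them), against 2.81% of all genes called and 0.896% called lower. At day 23, 1 member was called, against 0.385% of all genes called and 0.198% called lower. At an unadjusted p under 0.05, 11 members were lower and 2 higher at day 3, 11 lower and 2 higher at day 9, and 5 lower and 1 higher at day 23. In either direction 18.3%, 16.8% and 13.9% of all genes passed that threshold, so the 6 members of day 23 were near the background share.

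The members as a group lay slightly below 0. Their median difference was -0.11 at day 3, -0.16 at day 9 and -0.06 at day 23, beside 0.01, -0.02 and -0.02 for all genes. A negative difference was seen in 28, 31 and 28 of the 42, beside 47.2%, 54.8% and 54.8% of all genes. By family, the Ugt genes had the lowest medians at days 3 and 9, with -0.35 and -0.24. The Gst medians were -0.03, -0.14 and -0.07, and the Sult medians were -0.10, -0.11 and -0.06.

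Read without a test, all 3 treated mice lay below all 3 saline mice for 7 members at day 3, where this held for 10.3% of all genes. The same was true of 12 members at day 9 (11.2% of all genes) and 6 at day 23 (11.1%). All 3 treated mice lay above the saline mice for 2 members at day 3 (Sult1c1 and Ugt2b35, against 11.1% of all genes), 3 at day 9 (Gstp3, Gstt1 and Sult4a1, against 10.4%) and 1 at day 23 (Ugt2b34, against 8.1%). Day 9 had the most separated members, with 28.6% of the 42 on the lower side. Gsto1 was the one member whose treated mice lay below its saline mice on all 3 days.

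**Figure D1:**
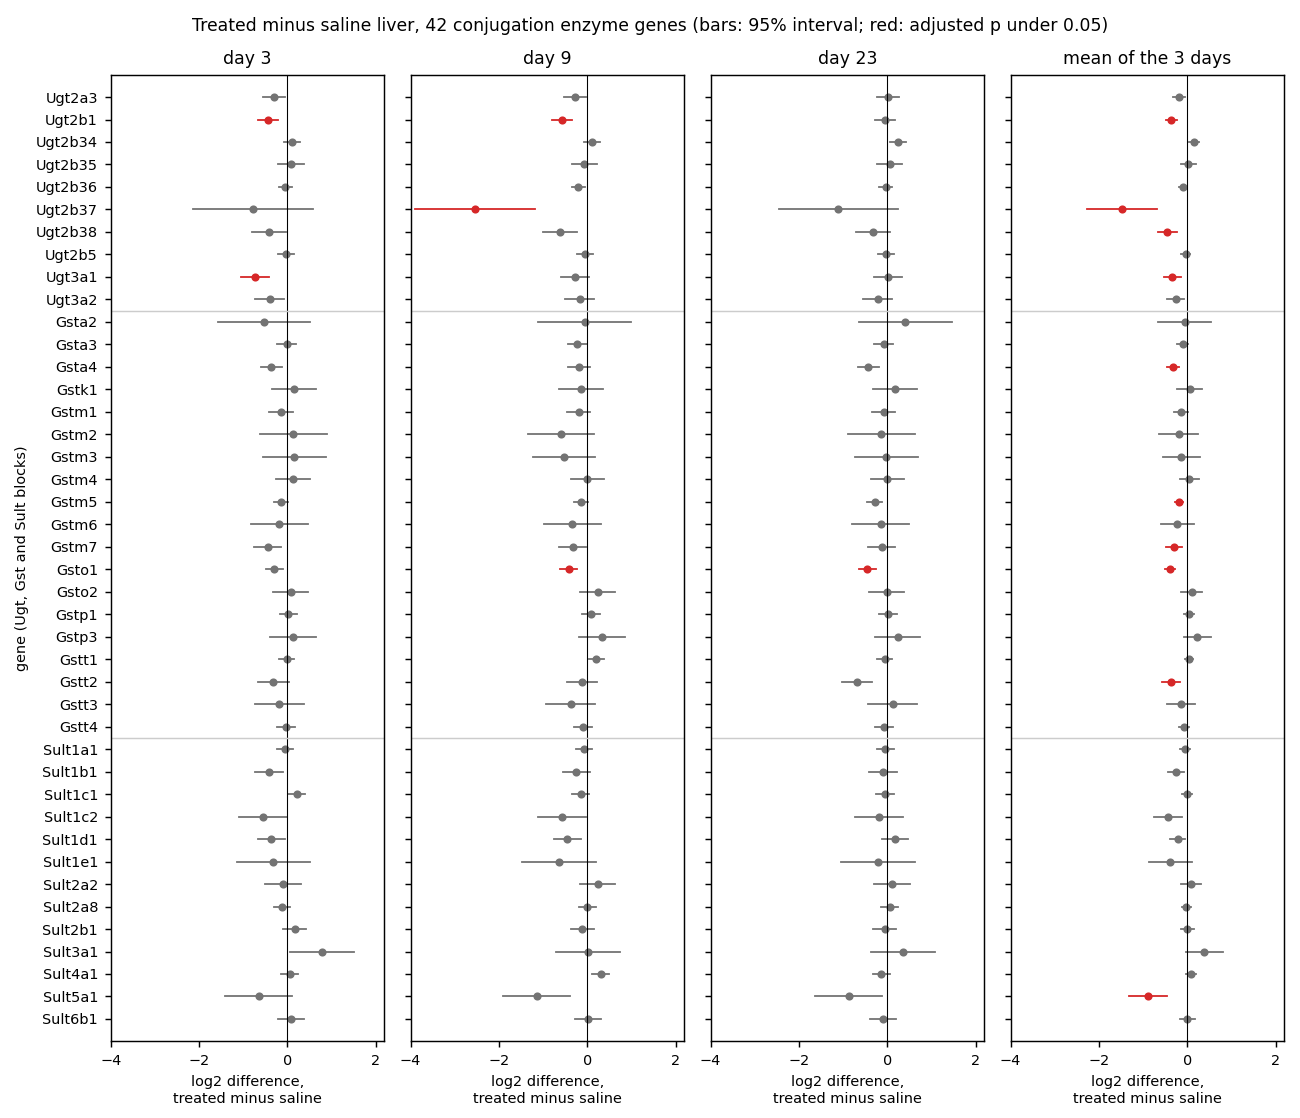
Difference in log2 expression between treated and saline liver (x axis) for each of the 42 conjugation enzyme genes (y axis), at days 3, 9 and 23 and as the mean of the 3 days. Points are limma estimates from 3 mice a group, bars are 95% intervals, and red marks an adjusted p under 0.05: red points lie left of 0 in every panel, 2, 3, 1 and 10 of them, and Ugt2b37 has the widest bars.

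Among the glucuronosyltransferases, Ugt2b1, a liver isoform of the family's largest branch, was called at both day 3 and day 9. It read 13.00, 12.91 and 12.53 in the saline mice of day 3 and 12.35, 12.42 and 12.36 in the treated mice. At day 9 it read 12.76, 12.77 and 12.75 in saline and 12.12, 12.19 and 12.22 in treated mice. At day 23 the values were 12.59, 12.29 and 12.39 against 12.29, 12.51 and 12.31. The groups were separate on the first 2 of these days and overlapped at day 23. Ugt2b1 was 1.36-fold lower at day 3 (log2 difference -0.44 ± 0.11 SE, n = 3 a group, limma adjusted p = 0.0264) and 1.5-fold lower at day 9 (-0.58 ± 0.11, limma adjusted p = 0.0092). At day 23 the difference was -0.05, with a 95% interval from -0.28 to 0.18. The day 3 call was lost without treated mouse 1, 2 or 3 (adjusted p 0.0963, 0.0522 and 0.0598) or saline mouse 1 or 2 (0.122 and 0.108), while the day 9 call was kept without any 1 of the 18 samples.

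Ugt3a1 belongs to the small Ugt3 branch, whose human counterpart transfers N-acetylglucosamine in place of glucuronic acid. Its saline mice of day 3 read 9.66, 9.80 and 9.49, and its treated mice read 8.94, 8.79 and 9.01. The day 9 values were 10.32, 9.89 and 10.31 in saline and 9.78, 9.61 and 10.27 in treated mice. Those of day 23 were 9.76, 9.67 and 9.99 in saline and 9.76, 9.90 and 9.80 in treated mice. Only at day 3 did the groups stand apart, and there Ugt3a1 was 1.66-fold lower (-0.73 ± 0.15 SE, n = 3 a group, limma adjusted p = 0.00877), a call kept without any 1 of the 18 samples. The differences at days 9 and 23 were -0.28 and 0.01 (adjusted p = 0.361 and 0.985). The other probe set of Ugt3a1 gave -0.61, -0.22 and 0.12 on the 3 days, and the day 3 value had an adjusted p of 0.0545 over every probe set. Ugt3a2, its neighbour on chromosome 15, differed by -0.40, -0.17 and -0.22, and its groups were separate at days 3 and 9 without a call (adjusted p = 0.18 and 0.636).

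Ugt2b37 had the largest difference of any member and also the largest spread. At day 9 it read 8.66, 6.77 and 8.46 in saline mice and 5.43, 5.57 and 5.24 in treated mice, 5.86-fold lower (-2.55 ± 0.64 SE, n = 3 a group, limma adjusted p = 0.0408). At day 3 the saline mice read 7.68, 7.53 and 6.38 and the treated mice 5.87, 7.85 and 5.55. At day 23 the saline mice read 8.79, 6.34 and 8.68 and the treated mice 7.15, 6.86 and 6.49. The groups overlapped on those 2 days, and 1 saline mouse of each day lay well below the other two. The differences of days 3 and 23 were -0.78 and -1.11 (adjusted p = 0.589 and 0.47). The day 9 call was lost without treated mouse 1, 2 or 3 of that day (adjusted p 0.105, 0.0795 and 0.131), without saline mouse 1 or 3 (0.147 and 0.139) and without treated mouse 1, 2 or 3 of day 23 (0.0504, 0.0527 and 0.0508). It was also lost with an intensity trend and robust prior (0.0966) and when probe sets were averaged or all tested (0.0525).

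Ugt2b38, next to Ugt2b37 but for Ugt2a3, was dim and moved in the same direction. It read 5.06, 4.30 and 4.85 in the saline mice of day 9 and 4.05, 4.13 and 4.15 in the treated mice, a difference of -0.63 ± 0.18 (adjusted p = 0.0769). The differences of days 3 and 23 were -0.40 and -0.32. On each of the 3 days the saline mouse with the lowest Ugt2b37 value also had the lowest Ugt2b38 value. Whether the 2 probe sets share signal was not tested, since no probe sequences were used here. Ugt2b5, whose promoter resembles both, read 13.25, 13.19 and 13.18 in the saline mice of day 9 and 13.20, 13.18 and 13.10 in the treated mice. Its differences of -0.03, -0.05 and -0.03 had 95% intervals within -0.23 and 0.15.

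The Ugt2 genes form 1 cluster on chromosome 5, in the order Ugt2b34, Ugt2b1, Ugt2b35, Ugt2b36, Ugt2b5, Ugt2b37, Ugt2a3 and Ugt2b38, with Ugt2a1 and Ugt2a2 after them. Genes that fell and genes near 0 lay side by side in it: Ugt2b34 and Ugt2b35, on either side of Ugt2b1, differed by 0.10 and -0.07 at day 9. Ugt2b36 differed by -0.20 at day 9 with separate groups (adjusted p = 0.129). Ugt2a3 differed by -0.30, -0.28 and 0.02, with separate groups at days 3 and 9 (adjusted p = 0.166 and 0.23). Ugt2b34 differed by 0.12, 0.10 and 0.24, and its mean over the days was 0.15 (adjusted p = 0.0571). It was the member closest to a call in the higher direction.

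**Figure D2:**
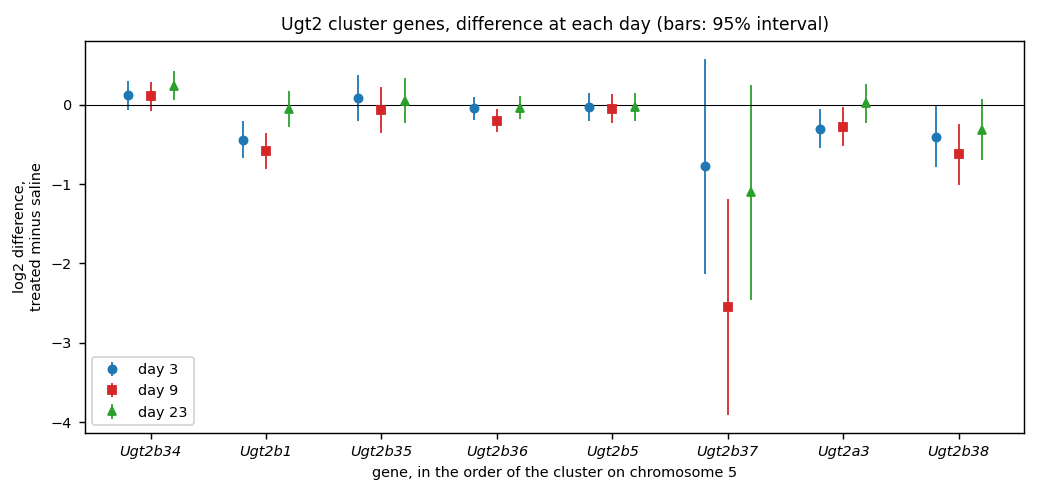
Difference in log2 expression between treated and saline liver (y axis) at each day for the 8 measured genes of the Ugt2 cluster, drawn in the order of the cluster (x axis). Points are limma estimates from 3 mice a group and bars are 95% intervals: the day 9 differences of Ugt2b1, Ugt2b37 and Ugt2b38 are -0.58, -2.55 and -0.63, and that of Ugt2b5 between them is -0.05.

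The Ugt1a enzymes, which include the bilirubin conjugating form, arise from alternative first exons joined to shared exons. None of them had a probe set of its own, and 3 probe sets were annotated to 8 Ugt1a genes at once, so they are not among the 42. These 3 had mean levels of 13.46, 13.25 and 13.01. Their differences lay between 0.08 and 0.18 on the 3 days. None was called when every probe set was tested, with adjusted p from 0.287 to 0.619. In all 3 probe sets, every treated mouse read above every saline mouse of its day, on each of the 3 days. The second of them read 13.34, 13.44 and 13.25 in the treated mice of day 9 and 13.20, 13.20 and 13.14 in the saline mice. On a single day such separation held for 11.1%, 10.4% and 8.1% of all genes. The 3 probe sets carry the same 8 symbols, so they are not separate results. The shared Ugt1a signal thus lay slightly higher in treated mice, without a call.

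Among the glutathione transferases, Gsto1 was lower in every treated mouse than in every saline mouse of its day. Gsto1 is an omega class enzyme that acts more as a thiol transferase and reductase, of dehydroascorbate and of methylated arsenic, than as a conjugating enzyme. The saline mice read 10.40, 10.52 and 10.56 at day 3, 10.62, 10.79 and 10.78 at day 9, and 10.57, 10.49 and 10.76 at day 23. The treated mice read 10.24, 10.27 and 10.09, then 10.27, 10.25 and 10.41, then 10.04, 10.21 and 10.22. The highest of the 9 treated mice thus barely exceeded the lowest of the 9 saline mice, 10.41 against 10.40. Gsto1 was 1.34-fold lower at day 9 (-0.42 ± 0.09 SE, n = 3 a group, limma adjusted p = 0.0205) and 1.37-fold lower at day 23 (-0.45 ± 0.09, limma adjusted p = 0.0456). At day 3 the difference was -0.29 ± 0.09 (adjusted p = 0.0855).

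As the mean of the 3 days, the Gsto1 difference was -0.39 ± 0.05 (limma adjusted p = 0.000178), and this call was kept without any 1 of the 18 samples. The single-day calls were less firm. That of day 9 was lost without treated mouse 1 or 2 (adjusted p 0.0747 and 0.0626) or saline mouse 2 or 3 (0.0689 and 0.0788). That of day 23 was lost on leaving out any 1 of 14 of the 18 samples (adjusted p 0.0518 to 0.133), and kept without treated mouse 2 or 3 or saline mouse 1 or 2 of day 3. The other probe set of Gsto1, whose suffix marks probes that may bind other transcripts, gave -0.24, -0.65 and -0.16. Over every probe set its adjusted p was 0.42, 0.0155 and 0.673, and that of the chosen probe set was 0.133, 0.0315 and 0.0657. Gsto2, its neighbour on chromosome 19, was dim, and its differences were 0.08, 0.23 and -0.02.

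In the alpha class, which conjugates products of lipid peroxidation and steroids, the members parted. Gsta4, the form most active on hydroxynonenal, lay between 10.83 and 11.06 in the saline mice of day 23 and between 10.47 and 10.65 in the treated mice. Its differences were -0.37, -0.19 and -0.43 (adjusted p = 0.0808, 0.435 and 0.087), with separate groups at days 9 and 23, and its mean over the days fell by 0.33 (limma adjusted p = 0.00349). Gsta3, an abundant liver form, differed by -0.01, -0.23 and -0.08. Gsta2 scattered too widely to be read: at day 3 its treated mice read 9.37, 8.13 and 10.77 and its saline mice 10.01, 10.10 and 9.74.

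The 7 mu class genes form a cluster on chromosome 3, and 2 of them fell as a mean over the days. Gstm5 read 9.17, 9.18 and 9.21 in the saline mice of day 23 and 9.00, 8.82 and 8.87 in the treated mice. It differed by -0.14, -0.14 and -0.29, and its mean over the days fell by 0.19 (limma adjusted p = 0.011). Gstm7 differed by -0.44, -0.33 and -0.13, and its mean fell by 0.30 (limma adjusted p = 0.0266). The Gstm7 call was lost without treated mouse 1 or 2 or saline mouse 2 of day 3, saline mouse 2 of day 9, treated mouse 3 or saline mouse 3 of day 23 (adjusted p at most 0.0573). A second probe set of Gstm7 gave 0.10, -0.18 and 0.12, and with both averaged the mean over the days was -0.14 (adjusted p = 0.112). Gstm1, the main liver form, differed by -0.14, -0.19 and -0.08, and its 4 probe sets gave values from -0.37 to 0.03. Gstm2 read 8.77, 9.66 and 8.32 in the saline mice of day 9 and 8.23, 9.01 and 7.74 in the treated mice, with differences of 0.14, -0.59 and -0.13 and no call.

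The theta class, which acts on small halogenated compounds, held the member nearest to a call at day 23. Gstt2 read 10.94, 10.84 and 10.80 in saline mice and 10.21, 10.09 and 10.21 in treated mice, with no overlap. That was 1.61-fold lower (-0.69 ± 0.16 SE, n = 3 a group, limma adjusted p = 0.0589). At day 3 the saline mice read 10.29, 10.24 and 10.63 and the treated mice 9.98, 9.71 and 10.53, and at day 9 the values were 10.85, 10.93 and 11.15 against 10.97, 10.98 and 10.66. Groups overlapped on these days, and the differences were -0.31 and -0.11. Gstt1, also on chromosome 10 but with Gstt4 between it and Gstt2, differed by -0.01, 0.20 and -0.06. The pi class gene Gstp1, whose rat counterpart marks preneoplastic foci in liver, differed by 0.03, 0.09 and 0.02, with 95% intervals within -0.18 and 0.28. Mitochondrial and peroxisomal Gstk1 differed by 0.15, -0.14 and 0.17.

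**Figure D3:**
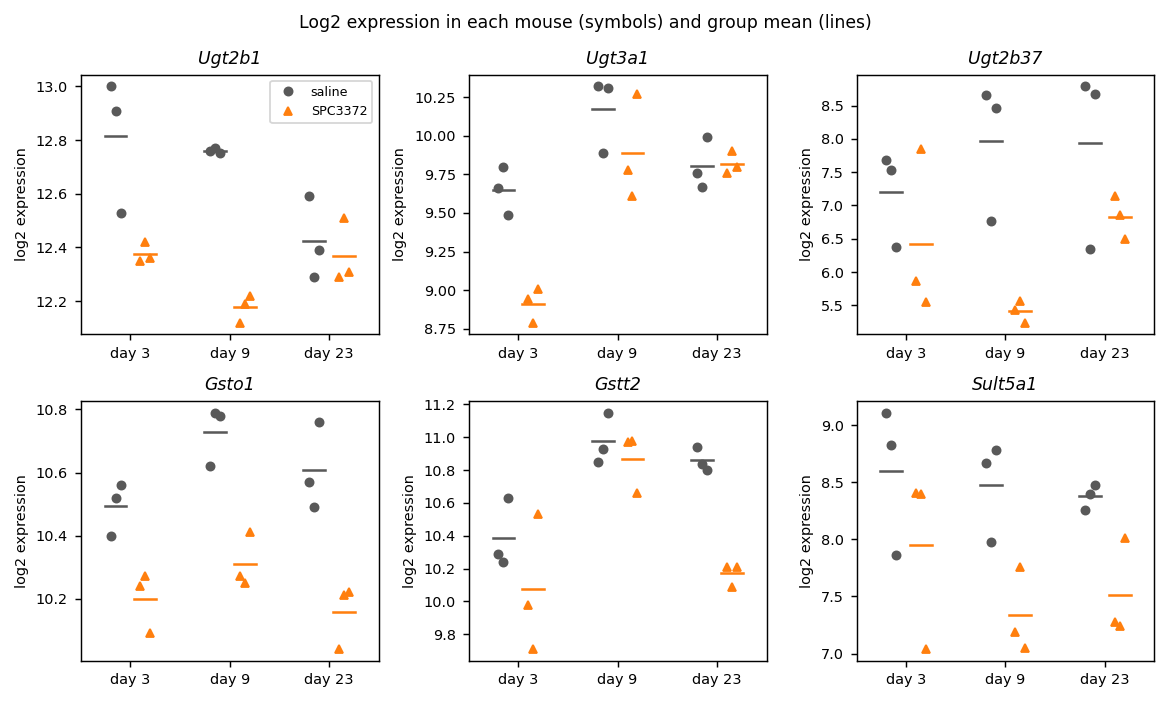
Log2 expression (y axis) of 6 members in each mouse at days 3, 9 and 23 (x axis), with saline mice as grey circles, SPC3372 mice as orange triangles and group means as lines; each panel has its own y range, which does not start at 0. The treated Gsto1 mice lie below the saline mice on all 3 days. Those of Ugt2b1 do so at days 3 and 9, those of Sult5a1 at days 9 and 23, those of Ugt3a1 at day 3, those of Ugt2b37 at day 9 and those of Gstt2 at day 23.

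Among the sulfotransferases no member was called on a single day, while Sult5a1 fell as a mean over the days. The saline mice of Sult5a1 read 9.11, 8.83 and 7.86 at day 3, 8.67, 7.98 and 8.78 at day 9 and 8.26, 8.40 and 8.48 at day 23. The treated mice read 8.41, 8.40 and 7.04, then 7.19, 7.76 and 7.05, then 7.28, 7.24 and 8.01. The groups were separate at days 9 and 23. Its differences were -0.65, -1.14 and -0.87 (adjusted p = 0.366, 0.1 and 0.283), and the mean over the days was -0.89 ± 0.21 (limma adjusted p = 0.00948), a call kept without any 1 of the 18 samples. At an unadjusted p under 0.05, 3 of the 13 Sult genes were lower and 2 higher at day 3. At day 9 there were 3 lower and 1 higher, and at day 23 there was 1 lower. Of all genes, 18.3%, 16.8% and 13.9% passed that threshold in either direction.

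Sult1 enzymes act on phenols, thyroid hormone, catecholamines and estrogens. Sult1a1, the main phenol form, differed by -0.05, -0.08 and -0.04. Sult1d1, active on catecholamines and related amines, read 11.36, 11.30 and 11.20 in the saline mice of day 9 and 10.71, 11.03 and 10.77 in the treated mice. It differed by -0.36, -0.45 and 0.17 (adjusted p = 0.175, 0.102 and 0.655), and its other probe set gave -0.45, -0.39 and 0.01. The arrays of the same treated day 23 mice in the p0617 set read lower by 0.34, 0.30 and 0.88. With them the day 23 difference turned to -0.33 (limma adjusted p = 0.295). The mean over the days was then called lower (-0.38, limma adjusted p = 0.00745). The saline day 23 mice were run in p0621 only, so treatment and array set cannot be told apart in that day 23 difference. Sult1b1, the thyroid hormone form, read 8.18, 8.11 and 8.03 in the saline mice of day 3 and 7.63, 7.63 and 7.80 in the treated mice. Its differences were -0.42, -0.24 and -0.10, and its groups were separate at day 3 only (adjusted p = 0.132). Sult1e1, the estrogen form, was dim, between 3.05 and 5.08 in the 18 samples.

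The hydroxysteroid forms Sult2a2 and Sult2a8, which sulfate bile acids and adrenal androgens, were abundant and not called. Sult2a8 differed by -0.12, 0.00 and 0.05. Sult2a2 differed by -0.10, 0.23 and 0.10, with 95% intervals within -0.50 and 0.63. Sult3a1, whose substrates are amines, had the largest positive difference of any member on a single day. At day 3 its saline mice read 13.11, 11.53 and 13.54 and its treated mice 13.06, 13.79 and 13.69, a difference of 0.78 ± 0.34 (adjusted p = 0.226). Without saline mouse 2, the lowest of them, the difference was 0.19. The groups overlapped, and at days 9 and 23 the differences were 0.02 and 0.36.

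The mean over the 3 days gave the firmest view of the members: 10 of 42, or 23.8%, were called, all lower, where 11.6% of all genes were called and 5.97% were called lower. At an unadjusted p under 0.05, 16 members were lower and 1 was higher, and 23.9% of all genes passed in either direction. Those not yet given with this value were Ugt2b1 (-0.36 ± 0.06, limma adjusted p = 0.00133), Ugt2b38 (-0.45 ± 0.10, 0.00965), Gstt2 (-0.37 ± 0.09, 0.0147), Ugt2b37 (-1.48 ± 0.37, 0.015) and Ugt3a1 (-0.34 ± 0.09, 0.0185). Of the 10, 4 were Ugt genes, 5 were Gst genes and 1 was a Sult gene. With the beta-actin ratio of the RNA as a covariate 3 members were called (Gsto1, Ugt2b37 and Ugt2b38), and with the macrophage markers as one 2 were called (Gsto1 and Sult1c2).

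No member was called for a difference in response between days. limma called 0 of the 42 in the tests of day 9 against day 3, day 23 against day 3 and day 23 against day 9, where 0.143%, 0.302% and 0.0055% of all genes were called. At an unadjusted p under 0.05, 1, 3 and 5 of the 42 members differed, where 11.6%, 10.2% and 8.68% of all genes did. The lowest adjusted p of any member was 0.29, 0.205 and 0.377 in these tests. The call of Ugt3a1 at day 3 and not later, and those of Ugt2b1 at days 3 and 9 and not at day 23, are therefore not shown to differ between days (adjusted p for day 23 against day 3 was 0.205 and 0.394).

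The saline groups of the first 2 days were compared as well, and 2.38% of the members were called. Gstt2 rose 1.51-fold from day 3 to day 9 (0.59 ± 0.16 SE, limma adjusted p = 0.0381), the 1 member called, where 5.88% of all genes were called. The call was lost without saline mouse 1 or 2 of day 3 or any 1 saline mouse of day 9. Ugt3a1 and Sult1b1 had differences of 0.52 and 0.51 (adjusted p = 0.0505 and 0.0543). These differences arose between groups that received no drug.

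Many of the conjugation enzymes, though not all, varied more between mice of 1 group than most genes. The median within-group SD of the members above the median level was 0.20, beside 0.14 for all 11689 genes above it, and 16 of the 42 lay above the 90th percentile of all genes. The largest SDs were 0.93 for Ugt2b37, 0.71 for Gsta2, 0.57 for Sult1e1 and 0.51 for both Sult5a1 and Gstm2. Others were among the steadiest genes: Ugt2b36, Gstm5, Gstt1 and Ugt2b5 lay at percentiles 0.5, 4.6, 5.5 and 9.3 of all genes.

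The scatter of Gsta2 and the 7 mu class genes was shared. In treated mice of day 3, mouse 3 was the highest of its group for 8 of these 8 genes. In treated mice of day 9, mouse 2 was the highest for 8 and mouse 3 the lowest for 7. Saline mice showed the same, with mouse 2 of day 9 highest for 7 and mouse 3 of day 23 highest for 8. In saline mice of day 3 and treated mice of day 23 no mouse led in more than 5 of the 8. The order was not particular to these genes. Gsta3 and Gstt3 were also highest in treated mouse 3 of day 3 and in mouse 2 of both day 9 groups, though not in saline mouse 3 of day 23. Gsta4, of the alpha class as well, was highest in mouse 3 among the treated mice of day 9. The share of all genes with such an order was not counted. Whether the probe sets of Gsta2 and the mu class genes share signal was not tested.

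**Figure D4:**
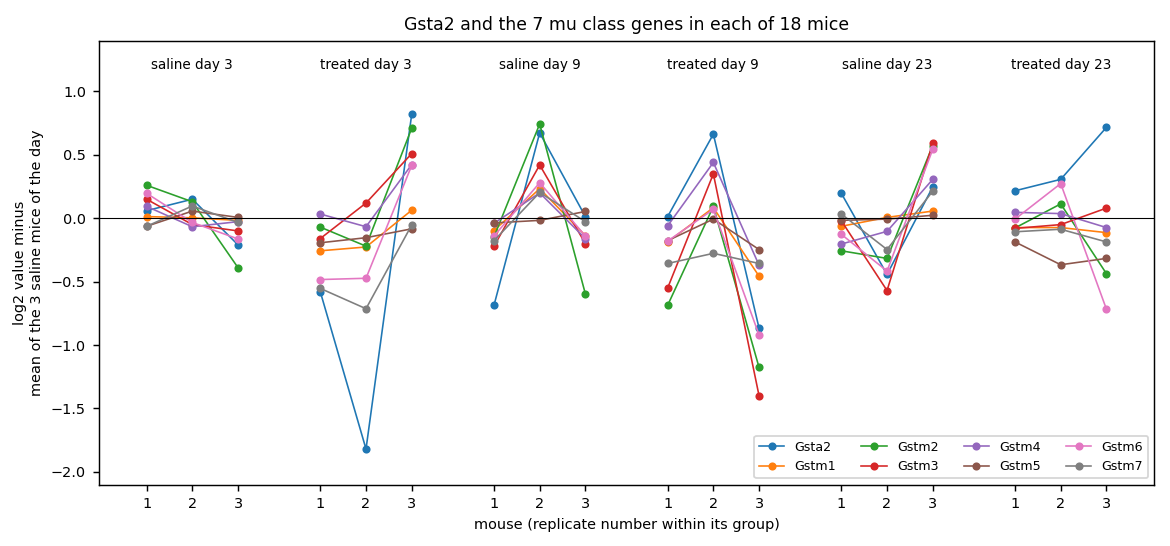
Log2 value of Gsta2 and the 7 mu class genes in each of the 18 samples, minus the mean of the 3 saline mice of its day (y axis), with mice numbered 1 to 3 within each group (x axis); lines join the values of a gene within a group and imply no order. In treated mice of day 3 and saline mice of day 23 all 8 genes are highest in mouse 3, and in treated mice of day 9 all 8 are highest in mouse 2.

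Cross-hybridisation bears on these families in a way the array design records in part. Of the 42 chosen probe sets, 32 had the plain suffix of probes unique to 1 transcript, 5 the suffix for several transcripts of 1 gene, 3 the suffix for probes shared by different genes and 2 the suffix for probes that may bind unrelated transcripts. The shared kind included Ugt3a1, Gstm3 and Ugt2b34, and the last kind Gstm1 and Sult6b1. Ugt2b1, Ugt2b37, Gsto1, Gstt2 and Sult5a1 had the plain suffix. Only 9 members had a second probe set of their own, and 5 further probe sets were annotated to several genes of these families. One of them, shared by Gsta1, Gsta2 and the predicted gene Gm3776, gave -0.60, 0.19 and 0.26, beside -0.52, -0.06 and 0.41 for the probe set of Gsta2 alone.

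The 2 hybridisations of the treated day 23 mice gave the technical spread. For 34 of the 42 members the largest difference between the 2 arrays of a mouse was under 0.25, with a median of 0.15 beside 0.24 for all genes. Sult1d1 was the one member over 0.5. With the other arrays of these mice, Gsto1 was also lower at day 23 (-0.41, limma adjusted p = 0.0416). The saline day 23 mice were run in p0621 only, so that comparison crosses the 2 array sets.

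The steps before and after conjugation were taken from lists of known genes, and few of their members were called. For glucuronidation, 8 of 9 listed donor genes were measured: Ugdh, which makes the sugar donor, differed by 0.25, -0.11 and 0.21 and was not called. Gusb, the lysosomal beta-glucuronidase that removes glucuronic acid again, fell 1.58-fold at day 3 (-0.66 ± 0.11, limma adjusted p = 0.00271) and 1.41-fold at day 9 (-0.49 ± 0.11, 0.0293). It was the 1 gene of that list called on either day. For sulfation, limma called 0 of 8 measured donor genes on any day, with 0, 1 and 1 at an unadjusted p under 0.05, and Papss2, which makes PAPS, differed by 0.03, -0.21 and 0.02. For glutathione supply, 1 of 14 was called, Oplah, which returns oxoproline to glutamate and fell 1.33-fold at day 3 (-0.41 ± 0.10, limma adjusted p = 0.0207).

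Of 11 export transporters, Abcg2, which carries sulfate and other conjugates into bile, fell 1.35-fold at day 3 (-0.44 ± 0.11, limma adjusted p = 0.0262), and the others were not called on any day. Among 21 other conjugating and hydrolysing enzymes, Nnmt, which methylates nicotinamide, fell 3.27-fold at day 9 (-1.71 ± 0.44, limma adjusted p = 0.0451). None rose. No gene of these pathway lists was called at day 23. The list medians lay between -0.23 (sulfation donors, day 9) and 0.10, beside -0.02 to 0.01 for all genes.

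None of the regulators of conjugation genes fell. Of 17 measured, 1 rose at day 3 and 4 at day 9, and the list medians were 0.09 and 0.27. Ahr, the dioxin receptor, rose by 0.57 ± 0.10 at day 3 (limma adjusted p = 0.0039) and 0.63 ± 0.10 at day 9 (0.00445), and differed by 0.49 at day 23 (0.0508). Nr1i3, the receptor CAR, rose by 0.52 ± 0.11, its partner Rxra by 0.52 ± 0.12 and the glucocorticoid receptor Nr3c1 by 0.41 ± 0.10 at day 9 (limma adjusted p = 0.0171, 0.0331 and 0.0323). Of the 6 readout genes of Ahr, Cyp1a2 rose by 0.68 ± 0.15 at day 3 and 0.60 ± 0.15 at day 9 (limma adjusted p = 0.0115 and 0.0351), while Cyp1a1 stayed dim at 3.98 to 4.17 in all group means. limma called 0 of 13 measured NRF2 readout genes on any day (1, 3 and 2 at an unadjusted p under 0.05) and 0 of 8 of the CAR and PXR readout genes (2, 3 and 1). Nqo1, an NRF2 readout, differed by -0.02 at day 3 and -0.14 at day 23.

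Markers of other cells moved with treatment at day 3, beside the falls of Ugt3a1 and Ugt2b1. Of 13 Kupffer cell and macrophage markers, 8 rose at day 3 with a list median of 0.81, and limma called 0 at days 9 and 23 (5 and 2 at an unadjusted p under 0.05). Their mean level was 9.03 to 9.67 in the treated mice of day 3 and 7.99 to 8.95 in the saline mice, and all 13 lay above the median probe set. The groups did not overlap in this mean level at day 3, so it and treatment cannot be fully told apart there. With the level as a covariate the day 3 differences were -0.54 for Ugt3a1 and -0.29 for Ugt2b1. Neither was called (limma adjusted p = 0.372 and 0.51). Gsto1 and Ugt2b1 at day 9 (-0.45 and -0.54) and Gsto1 at day 23 (-0.46) were called with it. The third call of day 9, Ugt2b37, was lost with this covariate (-2.62, adjusted p = 0.0667). In the lymphocyte and neutrophil list 2 of 10 genes rose at day 3, Gzma and Ccl5. Of 11 pericentral hepatocyte markers 3 rose at day 3 (Cyp1a2, Tbx3 and Cyp7a1) and 1 at day 9 (Cyp1a2), and limma called 0 at day 23. Their mean level was higher in treated mice on all 3 days, without overlap. It was 9.78 to 9.88 in treated and 9.32 to 9.61 in saline mice at day 3. At day 9 it was 9.92 to 10.06 against 9.64 to 9.86, and at day 23 it was 9.56 to 9.73 against 9.20 to 9.49. The list medians were 0.16, 0.15 and 0.17. Of 10 periportal markers Pck1 rose at days 3 and 9. The part of these cells in the falls of the conjugation enzymes was not tested.

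The remaining lists had few calls. Clec4g rose at days 3 and 9 among 9 sinusoidal endothelial markers, Reln and Dcn rose at day 9 among 9 stellate cell markers, and Epcam rose at day 3 among 7 cholangiocyte markers. limma called 0 of 3 erythroid markers on any day, and none had an unadjusted p under 0.05. Cholangiocyte markers had a mean level of 4.33 to 4.93, near the median of all probe sets.

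The beta-actin measure of RNA quality differed between the groups at days 3 and 9, and the Gapdh measure did not follow it. The log2 ratio of the 3′ to the 5′ probe set of beta-actin, which rises with RNA degradation, was 1.03 ± 0.02 in treated and 0.80 ± 0.05 in saline mice at day 3 (SD, n = 3). At day 9 it was 1.14 ± 0.02 against 0.93 ± 0.06, and at day 23 it was 1.15 ± 0.16 against 1.16 ± 0.04. The groups did not overlap at days 3 and 9, so the ratio and treatment cannot be fully told apart there. With the ratio as a covariate no member was called at days 3 and 9, with differences of -0.89 for Ugt3a1 and -0.48 for Ugt2b1 at day 3 and of -0.62 for Ugt2b1, -0.35 for Gsto1 and -3.90 for Ugt2b37 at day 9 (adjusted p from 0.0684 to 0.336). Gsto1 at day 23, where the ratios overlapped, was -0.45 with the covariate (limma adjusted p = 0.0466).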

How the data were processed

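Per the submitters' processing notes, the authors summarised the Affymetrix arrays with RMA, whose values are on a log2 scale. Neither the RMA version nor the set of arrays it was run on is stated. These deposited values were not normalized further. Of 45101 probe sets, 34945 had 1 gene symbol in the platform annotation and gave 18193 genes, each represented by the probe set with the largest average across the 21 arrays, and the 932 with several symbols were set aside. limma 3.58.1 in R 4.3.3 (lmFit and eBayes, two-sided, Benjamini-Hochberg over all 18193 genes, no filter on low values) was fitted to the 6 group means of 18 arrays, 1 per liver sample, with the p0621 arrays for day 23. The fit had 12 residual and 4.85 prior degrees of freedom. Intervals are 95% intervals of that fit. The spread is that between 3 separately labelled mice a group, and days were treated as independent although 4 mouse numbers recur between days 3 and 9. The fit was tested on simulated data.

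The members and gene lists were chosen with earlier results of these data known. Members were named if called on a day, if among the 2 highest of each family, or if among the 3 largest differences of a day above the median level, and list genes if called. Gsta4, Gstm5, Gstm7 and Ugt2b38 (called as a mean of the days), and the other members given as neighbours or class examples, as well as Ugdh, Papss2, Cyp1a1 and Nqo1, were added after their values were seen. Promoters were searched with Python 3.11.15 and aligned with Biopython 1.88. The macrophage covariate and the mouse number as a random block (duplicateCorrelation, consensus correlation -0.011) were chosen after seeing the data.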

Additional observations from a re-analysis of the deposited data

How the results depend on the processing

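Limits are few mice, dim probes whose signal lies near background, and probe sets that paralogues may share; the cause of a changed count was not tested. Members called at day 3 (2) became 1 when fitted on its own arrays, 1 with the replicate block, 1 at 1.5-fold or more, 4 above the 75th percentile of level, 0 with the beta-actin ratio and 0 with the macrophage markers, and 1 to 5 without a mouse. At day 9 (3) they became 1 at 1.5-fold or more and 0 with the ratio, and 1 to 4 without a mouse. At day 23 (1) they became 0 on own arrays, under median centring, the mean of probe sets, every probe set, the replicate block or 1.5-fold or more, 2 with all 21 arrays, quantile normalization or the median filter, 3 with the trend and robust prior, 4 above the 75th percentile, and 0 to 3 without a mouse. For the mean of the days (10) they became 2 at 1.5-fold or more, 3 with the ratio, 2 with the macrophage markers and 9 to 13 without a mouse. For the saline mice (1) they became 2 (21 arrays, quantile, centring, macrophage markers), 3 (both level filters, trend), 0 (every probe set, ratio) and 0 to 3 without a mouse. The tests between days called 0 members under every setting. The p0617 setting for day 23 sets p0617 treated arrays against p0621 saline arrays, so it crosses the array sets. All genes called at day 3 (815) became 254 on own arrays, 311 at 1.5-fold or more, 98 with the ratio, 126 with the macrophage markers and 435 to 872 without a mouse. At day 9 (511) they became 131, 191, 35 and 333, 216 with the replicate block and 178 to 529. At day 23 (70) they became 0 on own arrays, 121 with 21 arrays, 179 with the p0617 arrays, 139 with quantile normalization, 43 with centring, 214 and 395 with the level filters, 210 with the trend, 0 with the block, 23 at 1.5-fold or more, 107 with the macrophage markers and 3 to 115. For the mean of the days (2104) they became 153 at 1.5-fold or more, 459 with the ratio, 728 with the macrophage markers and 1723 to 2189. Replicate numbers did not pair the mice (correlations of deviations -0.14 to 0.08). The replicate block also ended the calls of Ugt2b1 at day 3 (adjusted p = 0.0759), Gsto1 at days 9 and 23 (0.0579 and 0.117), Ugt2b37 at day 9 (0.0508) and Gstm7 as a mean of the days (0.0516), and added Sult5a1 at day 9 (0.0492). Among the members named by the rule, the sign turned only for uncalled differences: Gsta3 at day 3 (0.03 as the mean of probe sets, 0.17 with the macrophage markers), Sult3a1 at days 3 and 9 (-0.31 and -0.27), Sult2a2 and Ugt2b5 at day 3 (0.20 and 0.08, all with the markers), and with the p0617 arrays Sult2a2 and Ugt3a1 at day 23 (-0.07 and -0.06). Without a mouse it turned for Gsta3 at day 3 (-0.08 to 0.05), Sult3a1 at day 9 (-0.04 to 0.08), Sult2a2 at days 3 and 23 (-0.24 to 0.11, -0.07 to 0.29), Ugt2b5 at days 3 and 23 (-0.11 to 0.05, -0.08 to 0.04), Ugt3a1 and Ugt2b1 at day 23 (-0.06 to 0.10, -0.12 to 0.03), Gstp1 at days 3 and 23 (-0.03 to 0.09, -0.01 to 0.05) and Gstm2 at days 3 and 23 (-0.14 to 0.32, -0.29 to 0.15). Of the single-gene values under alternatives, 1498 kept direction and side of the threshold, 88 lost a call and 13 gained one. A member was called higher only under some settings: Sult4a1 at day 9 with quantile normalization (0.34) and Ugt2b34 as a mean of the days with the level filters or the trend.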
